A study of Mus musculus with 4 samples.

Results

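Cajal-Retzius neurons are among the earliest neurons of the cerebral cortex, and 10 genes that mark them were followed here in telencephalic tissue of mouse embryos. The genes were chosen by name (Reln, Trp73, Lhx1, Lhx5, Calb2, Ebf2, Ebf3, Nhlh2, Cxcr4 and Ndnf), and all 10 were found among the 30637 genes of the table. RNA-seq libraries were made from C57BL/6 embryos at embryonic day 13, 2 from controls and 2 from Pd1CKO embryos, a conditional knockout of Pd1. The design text counts 2 animals of each genotype and gives the controls as Pd1fl/fl, with floxed Pd1 alleles, while their titles and genotype labels say wild type. Which Cre line was used is not stated in the sources used here. The libraries are called control 1, Pd1CKO 1, control 2 and Pd1CKO 2 after the numbers in their titles. Paired values for a number are in the order control, Pd1CKO.

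Cajal-Retzius neurons arise at the edges of the cortex, from the cortical hem, the septum, the antihem at the border between pallium and subpallium, and the thalamic eminence. They spread beneath the meninges, where the chemokine Cxcl12 guides cells that carry its receptor Cxcr4. In the marginal zone they secrete reelin, which binds the receptors Vldlr and Lrp8 on migrating neurons, acts through the adaptor Dab1 and steers the layering of the cortex. None of the 10 genes is expressed in these neurons alone. In bulk tissue, fewer cells of a type and less RNA per cell cannot be told apart.

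Levels are in FPKM, that is, fragment counts divided by exon length and by the depth of the library, so that genes can be compared with each other. The values implied between 16190000 and 18730000 counted fragments per library. Pd1 was read as Pdcd1, which was listed at 0 in control 1, Pd1CKO 1 and Pd1CKO 2 and at 0.416 FPKM in control 2, so the target gene gives no check on the labelled genotypes. Reading 0 as up to 3 fragments allows 0.0837, 0.083 and 0.0859 FPKM in these 3 libraries. As a check of the tissue label, Tbr1, a factor of early cortical neurons, was at 38.0 to 53.1 FPKM in the 4 libraries. Pd1CKO 2 stood apart by its Y-linked genes, with Ddx3y at 9.48 FPKM there and at 0 elsewhere. Xist was at 0.00308 FPKM in Pd1CKO 2 and at 34.7, 61.2 and 54.0 in control 1, Pd1CKO 1 and control 2. Within number 2, control and Pd1CKO thus also differ in sex-linked RNA, and genotype and sex cannot be told apart there. Libraries that share a number resembled each other more than libraries that share a genotype. Pearson correlations of log2(FPKM + 1) across the 13927 genes averaging 1 FPKM or more were 0.978 between the libraries numbered 1 and 0.987 between those numbered 2, against 0.912 to 0.916 across numbers. The number is a label only, and no source says what the libraries of a number share. Each number holds 1 library of each genotype, and each result is given within both numbers.

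Reln and Trp73, a secreted product and a p53-family factor that are both widely used to recognise Cajal-Retzius neurons, followed different patterns over the libraries. The stretches before their start sites are shown first, and their part in these patterns was not tested. RefSeq promoter sequences (GRCm38.p6, the build also called mm10) were matched for 6 of the 10 genes, with 7 start sites among them. Each sequence holds the 250 bases before a start site, 5′ to 3′ in the orientation of the gene. Reln and Trp73 both lie on minus strands. Capitals mark matches to CCCNNGGG, the core recognised by the Ebf factors, and to CAGCTG, an E-box of the kind bound by Nhlh factors. The Reln stretch is chr5:22344706-22344955, and those of Trp73 are chr4:154139876-154140125 for the upstream site, from which the full-length form of p73 is made, and chr4:154097174-154097423 for the site within the gene, from which the truncated form known from Cajal-Retzius neurons is made.
Reln: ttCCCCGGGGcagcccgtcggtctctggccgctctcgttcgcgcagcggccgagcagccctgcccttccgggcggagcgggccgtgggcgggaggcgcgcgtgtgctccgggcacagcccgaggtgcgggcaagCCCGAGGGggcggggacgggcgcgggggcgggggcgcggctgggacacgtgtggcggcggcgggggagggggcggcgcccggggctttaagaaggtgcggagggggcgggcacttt
Trp73 upstream site: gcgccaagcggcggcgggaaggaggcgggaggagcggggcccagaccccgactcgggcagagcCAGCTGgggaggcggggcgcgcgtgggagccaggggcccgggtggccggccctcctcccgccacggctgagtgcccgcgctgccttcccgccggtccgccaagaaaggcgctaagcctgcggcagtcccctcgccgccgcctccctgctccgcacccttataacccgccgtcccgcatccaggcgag
Trp73 inner site: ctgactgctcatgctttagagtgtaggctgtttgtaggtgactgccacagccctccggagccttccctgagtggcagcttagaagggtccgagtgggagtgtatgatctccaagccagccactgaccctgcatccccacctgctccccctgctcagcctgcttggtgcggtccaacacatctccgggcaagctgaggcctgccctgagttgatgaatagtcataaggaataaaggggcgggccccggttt
The Reln stretch had a GC content of 80.0% and 2 matches to CCCNNGGG, starting at positions 3 and 135 from its 5′ end, neither of which overlapped another motif searched. The upstream Trp73 stretch had a GC content of 77.2% and 1 E-box, at position 64. The inner Trp73 stretch had a GC content of 58.4% and no match. With both strands searched, CCCNNGGG was in 11.8% of all 32851 promoter stretches of this length, CAGCTG in 13% and the homeodomain core TAATTA in 4.84%. Among the 7 stretches of the 6 genes they were in 2 (Reln and Ebf3), 1 (Trp73) and 0. The Ebf3 stretch, like that of Reln, had a GC content of 80.0%. The shares over all promoters were not matched for GC content, so these counts are a description only. The FPKM values are per gene, so the forms made from the 2 Trp73 sites cannot be told apart.

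The 10 genes covered a wide range of levels. Ordered by mean FPKM over the 4 libraries, Cxcr4 came first at 18.6, followed by Calb2 at 13.9, Reln at 13.2, Nhlh2 at 7.73, Lhx5 at 7.39, Trp73 at 5.88, Lhx1 at 2.59, Ebf3 at 1.98, Ndnf at 1.14 and Ebf2 at 0.984. Neighbours in this order overlapped in their values over the libraries, except Trp73 with Lhx1 and Ebf3 with Ndnf. Reln spanned 4.97 to 20.9 FPKM and Calb2 8.79 to 18.1, and Lhx5 spanned 2.83 to 15.7 around the narrower range of Nhlh2, 7.15 to 8.68. Each gene rested on at least 69 fragments in each library, and Reln, with an exon length of 23738 bases, on 2192 to 8972. Of the 10 genes, 9 passed the filter of a mean of 1 FPKM used for testing, and Ebf2 did not.

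**Figure D1:**
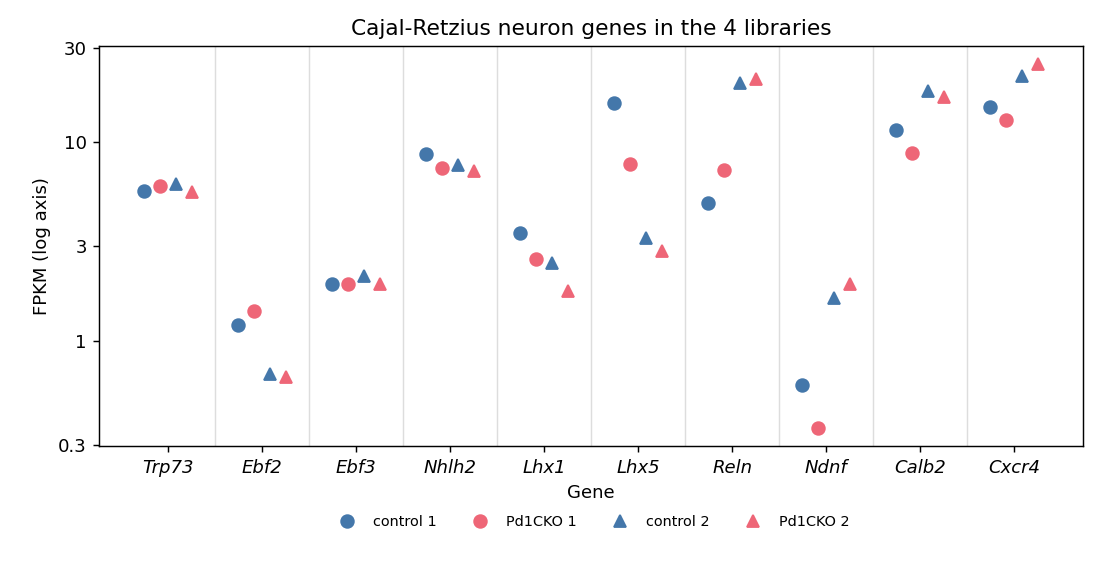
FPKM (log axis) of the 10 Cajal-Retzius genes in each library, with transcription factors on the left and secreted, calcium-binding and receptor genes on the right. Circles are libraries numbered 1 and triangles libraries numbered 2, blue for control and red for Pd1CKO, 1 point per library. Trp73 lay between 5.65 and 6.17 FPKM, while Reln was at 4.97 and 7.22 FPKM in the libraries numbered 1 and at 19.8 and 20.9 in those numbered 2.

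The libraries numbered 2 had more RNA of Reln, Ndnf, Calb2 and Cxcr4 than those numbered 1 and less of Lhx5, while Trp73, Ebf3 and Nhlh2 lay within a narrow range. In limma, fitted with the number as its only term over 13927 genes, 4 of the 9 tested genes were higher and 1 was lower in the libraries numbered 2 at a Benjamini-Hochberg adjusted p under 0.05. Of all tested genes, 16.5% were called higher and 18.5% lower, 35.0% in either direction, so a large share of the transcriptome moved as well. The median difference over the 10 genes was 0.03 on the log2(FPKM + 1) scale and lay at the same value over all tested genes, with members far to both sides. The added 1 FPKM makes the fold of low genes such as Ndnf look smaller than it was.

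Reln, the gene of the secreted glycoprotein reelin (ENSMUSG00000042453, mm10 chromosome 5, 21884454 to 22344702, minus strand), was at 4.97 and 7.22 FPKM in number 1 and 19.8 and 20.9 in number 2. Both libraries numbered 2 lay above both libraries numbered 1, with means of 20.3 ± 0.764 and 6.1 ± 1.59 FPKM (SD, n = 2). The log2 difference in limma was 1.61 ± 0.17 (SE, adjusted p = 0.002747), higher than that of 99.6% of the tested genes. The fold of FPKM was 3.98 between the controls (exact 95% counting interval 3.8 to 4.18) and 2.89 between the Pd1CKO libraries (2.78 to 3.01). Reln is also longer than 99.6% of the tested genes, and over all genes the number difference was correlated with gene length (Spearman rho 0.289) and with GC content (-0.278). With the trends on length and GC content removed within each library, the Reln difference was 1.11 (limma adjusted p = 0.00313). Gm16111, a processed pseudogene on the opposite strand within Reln, had 0.567 and 2.25 FPKM in number 1 and 3.68 and 6.59 in number 2.

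Ndnf, the gene of a secreted neurotrophic factor found in Cajal-Retzius and later layer 1 neurons (chromosome 6, 65671590 to 65712326), stood at 0.596 and 0.364 FPKM in number 1 and 1.65 and 1.93 in number 2. The numbers did not overlap. The fold was 2.78 between the controls (counting interval 2.22 to 3.49) and 5.29 between the Pd1CKO libraries (4.08 to 6.96), and the log2 difference was 0.92 ± 0.17 (SE, limma adjusted p = 0.0121). This call was lost with length and GC trends removed (0.567, limma adjusted p = 0.0758), Ndnf being longer than 91.3% of the tested genes.

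Calb2 encodes the calcium-binding protein calretinin (chromosome 8, 110137502 to 110168210), which also marks thalamic neurons and some interneurons. It had 11.5 and 8.79 FPKM in number 1 and 18.1 and 17 in number 2. The numbers again did not overlap, with a log2 difference of 0.75 ± 0.14 (SE, limma adjusted p = 0.01383) and folds of 1.57 (1.38 to 1.8) within control and 1.94 (1.67 to 2.24) within Pd1CKO. Cxcr4, the chemokine receptor (chromosome 1, 128588199 to 128592293), is shared with migrating interneurons and blood vessels. Its values were 15 and 12.9 FPKM in number 1 and 21.6 and 24.8 in number 2, a log2 difference of 0.70 ± 0.12 (SE, limma adjusted p = 0.01022). Calb2 and Cxcr4 are both short, with 1743 and 1808 bases of exon, and their differences were 0.961 and 0.807 with length and GC trends removed (limma adjusted p = 0.004 and 0.00577).

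Lhx5, a LIM-homeodomain factor of Cajal-Retzius neurons that is also used in the diencephalon (ENSMUSG00000029595, chromosome 5, 120431699 to 120441223), moved the other way. It was at 15.7 and 7.74 FPKM in number 1 and 3.31 and 2.83 in number 2. Control 1 was the highest and both libraries numbered 2 were the lowest, with a log2 difference of -1.57 ± 0.30 (SE, limma adjusted p = 0.01487). The fold of number 2 over number 1 was 0.211 within control (0.175 to 0.252) and 0.366 within Pd1CKO (0.299 to 0.446). An antisense transcript, Gm27199, overlaps the start of Lhx5 and had 5.19, 3.17, 3.77 and 3.99 FPKM in control 1, Pd1CKO 1, control 2 and Pd1CKO 2. No source used here says whether counting was by strand, so reads over such overlaps cannot be assigned. Without the filter on low values, which raises the number of tested genes to 30637, the calls of Lhx5 and Calb2 were lost (limma adjusted p = 0.0757 and 0.0592).

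Its close relative Lhx1 (chromosome 11, 84518284 to 84525535) had 3.5 and 2.58 FPKM in number 1 and 2.47 and 1.79 in number 2. The libraries numbered 2 lay below those numbered 1, but the difference did not pass in limma (-0.37 ± 0.18, SE, adjusted p = 0.1679). Ebf2, a factor of the Ebf family found in a subset of Cajal-Retzius neurons (chromosome 14, 67233292 to 67430918), was at 1.2, 1.41, 0.677 and 0.654 FPKM in control 1, Pd1CKO 1, control 2 and Pd1CKO 2. Its folds between numbers were 0.566 within control (0.424 to 0.75) and 0.464 within Pd1CKO (0.353 to 0.605). Tested without the filter, it had a limma adjusted p of 0.115. Over the 10 genes, 4 had both libraries numbered 2 above both numbered 1 and 3 (Lhx1, Lhx5 and Ebf2) had them below, against 38.5% and 34.1% of all tested genes.

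The other 3 factors varied little. Trp73, whose product p73 is needed for the survival of Cajal-Retzius neurons in the mouse (ENSMUSG00000029026, chromosome 4, 154056253 to 154140208), was at 5.71 and 5.99 FPKM in number 1 and 6.17 and 5.65 in number 2. Its log2 difference between numbers was 0.01 ± 0.10 (SE, limma adjusted p = 0.9405), and the folds of 1.08 (0.96 to 1.22) and 0.943 (0.84 to 1.06) had intervals below those of Reln in both genotypes. Ebf3 (chromosome 7, 137193673 to 137314445) lay between 1.94 and 2.11 FPKM in the 4 libraries, with a difference of 0.04 ± 0.13 (SE, limma adjusted p = 0.8278). Nhlh2, a basic helix-loop-helix factor of newly formed neurons (chromosome 3, 102010076 to 102015492), ranged from 7.15 to 8.68 FPKM, with -0.10 ± 0.11 (SE, limma adjusted p = 0.5395). A p above the threshold does not show that the levels were equal.

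**Figure D2:**
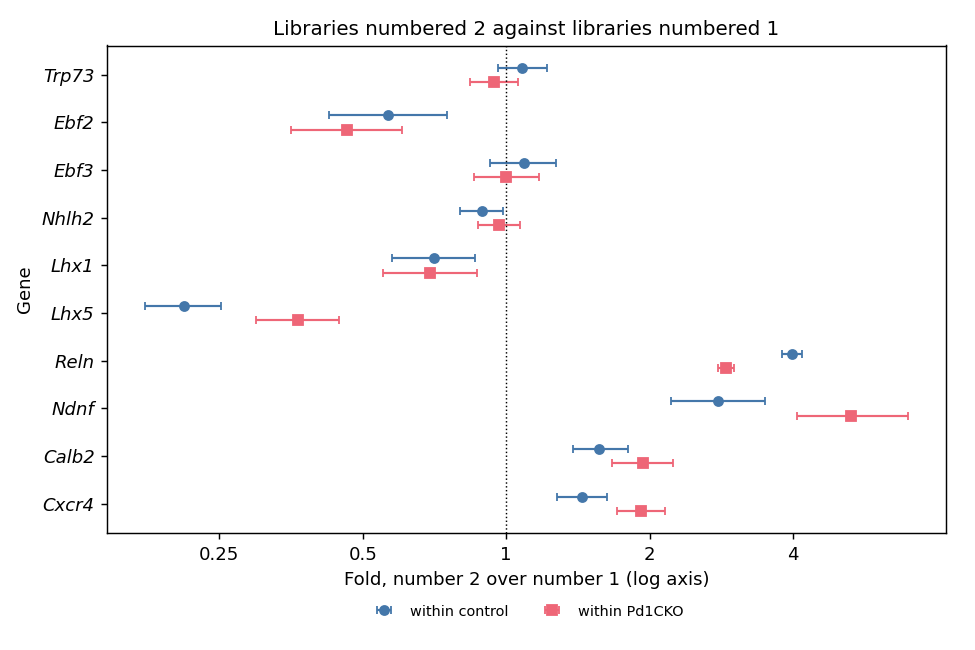
Fold of FPKM, number 2 over number 1 (log axis), for each of the 10 genes within control (blue circles) and within Pd1CKO (red squares). Bars are exact 95% intervals that cover counting error only, and each point compares 1 library with 1 library. Reln, Ndnf, Calb2 and Cxcr4 lie above 1 in both genotypes, Lhx1, Lhx5 and Ebf2 below 1, and the intervals of Trp73 and Ebf3 include 1.

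Between the genotypes, none of the Cajal-Retzius genes passed the test. With genotype as its only term, limma called 0 of the 9 tested genes at an adjusted p under 0.05 and 0.0% of all 13927, with an adjusted p of 0.9998 for each of the 9. At an unadjusted p under 0.05 there were 47 genes in the whole table, 32 higher and 15 lower in Pd1CKO, and none of the 9 was among them (smallest unadjusted p 0.282, for Lhx1). The number difference sits in the residual spread of this fit, so the counts of 0 set no bound on a difference between genotypes. Within each number, 7 of the 10 genes were lower in Pd1CKO than in control, and 5 (Lhx1, Lhx5, Calb2, Ebf3 and Nhlh2) were lower in both. Of all tested genes, 45.3% were lower in the libraries numbered 1, 49.9% in those numbered 2 and 23.5% in both. The median log2 ratio over the 10 genes was -0.202 in number 1 and -0.084 in number 2, beside 0.034 and 0 over all tested genes.

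Among the LIM-homeodomain factors, Lhx1 showed nearly the same fold in both numbers, 0.737 (counting interval 0.61 to 0.89) and 0.724 (0.571 to 0.917). Its mean was 2.99 ± 0.73 FPKM over the controls against 2.19 ± 0.56 over Pd1CKO (SD, n = 2), with a log2 fold change of -0.32 ± 0.26 (SE, limma adjusted p = 0.9998). The genotypes overlapped, since Pd1CKO 1 at 2.58 lay above control 2 at 2.47. Lhx5 had a fold of 0.494 (0.436 to 0.558) in number 1 and of 0.857 (0.674 to 1.09) in number 2. Its log2 fold change of -0.55 ± 0.79 (SE, limma adjusted p = 0.9998) had only 0.8% of the tested genes below it. Control 1, the library highest in Lhx5, was also highest in the thalamus and diencephalon list, whose 8 genes summed to 43.6 FPKM there and to 12.5 in Pd1CKO 1, 13.5 in control 2 and 11.3 in Pd1CKO 2. All 8 of these genes were lower in Pd1CKO 1 than in control 1, 5 of 8 were lower in Pd1CKO 2 than in control 2, and none was at 0 in all libraries. Their part in the Lhx5 values was not tested. Without control 1 the Lhx5 fold change was 0.427, and without Pd1CKO 2 it was 0.045, values that also take in the number difference, since 1 genotype is then a single library.

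Reln was the only one of the 10 genes higher in Pd1CKO in both numbers, by 1.45-fold (1.38 to 1.53) in number 1 and 1.05-fold (1.02 to 1.09) in number 2, where 28.2% of all tested genes were higher in both. Its log2 fold change was 0.27 ± 0.79 (SE, limma adjusted p = 0.9998), and 0.142 with length and GC trends removed. Over all genes, Spearman's rho between the log2 ratio of Pd1CKO to control and gene length was 0.305 in number 1 and 0.016 in number 2. Without control 1 or without Pd1CKO 2, the Reln fold change was -0.633 or -0.438, but each of these fits leaves 1 genotype with a library of a single number, so the number difference enters the value.

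Ndnf and Cxcr4 were lower in Pd1CKO in number 1, with folds of 0.611 (0.446 to 0.832) and 0.863 (0.758 to 0.983), and had folds of 1.17 (0.992 to 1.37) and 1.15 (1.03 to 1.28) in number 2. The difference between the numbers cannot be tested, because a fit with that term leaves no residual degrees of freedom. Calb2 had folds of 0.763 (0.652 to 0.892) and 0.938 (0.83 to 1.06). Nhlh2 and Ebf3 had both Pd1CKO libraries below both controls, as did 6.14% of all tested genes, and 0 of the 10 genes had both above both, as did 8.37% of all tested. For Nhlh2 the mean was 8.19 ± 0.688 FPKM over the controls against 7.27 ± 0.171 over Pd1CKO (SD, n = 2), with folds of 0.852 (0.772 to 0.94) and 0.928 (0.833 to 1.03). Ebf3 differed by less than counting error, with folds of 0.997 (0.854 to 1.16) and 0.92 (0.785 to 1.08). Trp73 had folds of 1.05 (0.935 to 1.18) and 0.916 (0.813 to 1.03), and Ebf2 of 1.18 (0.946 to 1.47) and 0.965 (0.698 to 1.34).

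**Figure D3:**
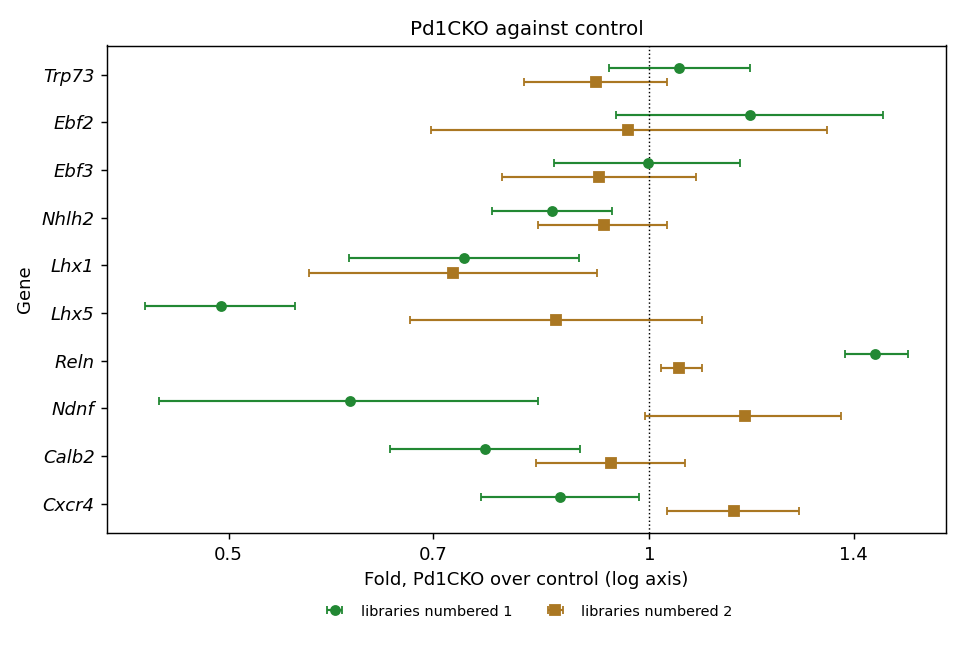
Fold of FPKM, Pd1CKO over control (log axis), for each of the 10 genes between the libraries numbered 1 (green circles) and those numbered 2 (brown squares). Bars are exact 95% intervals that cover counting error only. Lhx1 lies near 0.73 in both numbers, Lhx5 is at 0.494 and 0.857, and Reln is at 1.45 and 1.05.

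Genes that act with the Cajal-Retzius genes were taken from lists chosen by name. For reelin signalling, all 10 listed genes were tested, of which 4 were higher and 1 was lower in the libraries numbered 2, and 0 passed for genotype. Of all tested genes, 16.5% were called higher and 18.5% lower between numbers. The receptor genes Vldlr and Lrp8 were both higher in number 2. Vldlr had 2.95 and 3.12 FPKM in number 1 and 5.53 and 6.39 in number 2. Lrp8 had 14.1 and 17.4 in number 1 and 30.2 and 29.4 in number 2. Their log2 differences between numbers were 0.78 ± 0.12 and 0.89 ± 0.12 (SE, limma adjusted p = 0.00712 and 0.00524). The adaptor gene Dab1 stood at 9.82, 12.8, 21.5 and 21.6 FPKM in control 1, Pd1CKO 1, control 2 and Pd1CKO 2 (0.88 ± 0.14, SE, limma adjusted p = 0.00787). Rapgef1, an exchange factor for the small GTPase Rap1, was also called higher (0.32 ± 0.09, SE, limma adjusted p = 0.0425). The kinase gene Src was called lower, with 56.1, 51.6, 40.6 and 41.7 FPKM over the libraries in that order (limma adjusted p = 0.0252). Its relative Fyn ranged from 48.4 to 60.0 FPKM (limma adjusted p = 0.0818). The other genes, Crk, Crkl, Rap1a and Pafah1b1, did not pass, with means of 31.9, 18, 20.2 and 28.7 FPKM. The ligand and its receptors both had more RNA in the libraries numbered 2. For the receptors and Dab1, no values with length and GC trends removed are given. Over all genes, the number difference was correlated with gene length (Spearman rho 0.289). The postmitotic neuron list summed to 1871 and 1861 FPKM in number 2 against 1491 and 1054 in number 1. It had 3 of 6 genes called higher and 0 lower. Most of each sum came from Tubb3, at 1190 and 784 FPKM in number 1 and 1411 and 1389 in number 2. Tubb3 did not pass (limma adjusted p = 0.104). The part of this list in the reelin pathway values was not tested.

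For the chemokine axis, Cxcl12, the ligand of Cxcr4 made by the meninges, was at 5.94 and 9.59 FPKM in number 1 and 2.08 and 2.39 in number 2. It was lower in the libraries numbered 2 (-1.41 ± 0.22, SE, limma adjusted p = 0.00772), where its receptor was higher. Ackr3, the second receptor for Cxcl12, ranged from 11.3 to 13.1 FPKM (limma adjusted p = 0.511). The meninges list moved with Cxcl12, with 5 of 5 genes called lower in number 2, as were 18.5% of all tested genes. Its summed levels were 31.8 and 54.2 FPKM in number 1 against 1.49 and 2.16 in number 2. Between the controls, its leading genes Col1a1 and Lum went from 11.9 to 0.226 FPKM and from 7.63 to 0.0504. The part of meningeal tissue in the Cxcl12 values was not tested.

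Further genes reported in Cajal-Retzius neurons were as divided as the 10. Of 9 tested, 3 (Cdh4, Edil3 and Car10) were higher in the libraries numbered 2 and 2 (Barhl2 and Nhlh1) were lower, with a median of 0.13. The shares over all tested genes were 16.5% higher and 18.5% lower. Tbr1 did not pass (limma adjusted p = 0.106). Nhlh1, the paralog of Nhlh2, had 26.3, 33.8, 18 and 13.2 FPKM in control 1, Pd1CKO 1, control 2 and Pd1CKO 2 (-0.91 ± 0.19, SE, limma adjusted p = 0.0178). Barhl2, a homeobox factor also used in the diencephalon, had 12.9, 8.03, 1.97 and 1.89 FPKM, an order of libraries like that of Lhx5. Among the paralogs of the 10 genes, 5 of 7 were tested and 1, Ebf4, was called lower in number 2, while Lhx6 and Lhx8 had means of 20.0 and 10.3 FPKM.

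Among lists for the regions from which Cajal-Retzius neurons arise, those of the cortical hem and septum had more genes called lower than higher in the libraries numbered 2. Over all tested genes, 18.5% were called lower and 16.5% higher. The cortical hem list had 7 of 10 tested genes called lower and 0 higher, with 34.2 and 48.5 summed FPKM in number 1 and 18.2 and 20.2 in number 2. Among them, Wnt8b had 6.67, 8.6, 1.66 and 2.05 FPKM in control 1, Pd1CKO 1, control 2 and Pd1CKO 2, and Rspo3 had 8.25 to 9.55 FPKM and did not pass. For the septum and rostral midline, 4 of 6 genes were called lower and 0 higher, with summed levels of 108 and 76.4 FPKM in number 1 and 57.0 and 43.0 in number 2. The antihem list was mixed, with 2 of 5 tested genes higher and 2 lower. Its antihem gene Sfrp2 had 17.5, 14.6, 8.03 and 9.75 FPKM, and Tgfa had 1.05, 1.55, 3.91 and 3.69. Progenitor factors that restrain or shape Cajal-Retzius fate had 4 of 6 genes lower, with Lhx2 at 104, 131, 61.9 and 58.6 FPKM. No gene of these lists passed for genotype.

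Markers of other cells that share genes with the list were also measured. Between numbers, 16.5% of all tested genes were called higher and 18.5% lower. The thalamus and diencephalon list had 0 of 5 tested genes called between numbers. In the ventral telencephalon and interneuron list, 1 of 8 genes (Gad1) was called higher and 3 were lower, with summed levels of 345 and 239 FPKM in number 1 and 183 and 191 in number 2, and its leading genes Dlx1 and Dlx2 were both called lower. The endothelium list had 3 of 4 genes lower, with 46.6 and 53.3 summed FPKM in number 1 and 26.0 and 25.2 in number 2. Cxcr4, which interneurons and vessels share, was higher in the libraries numbered 2, as was Gad1, at 10.1 and 7.51 FPKM in number 1 and 15.7 and 14.8 in number 2. The part of interneurons and vessels in the Cxcr4 values was not tested. The subplate list had 1 of 3 tested genes lower and none higher, with Nr4a2 at 5.2 to 7.63 FPKM. Of the olfactory epithelium list, in which Ebf factors are also used, 1 of 4 genes reached a mean of 1 FPKM and the sum was 0.858 to 2.27 FPKM. No list had a gene at 0 in all libraries.

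**Figure D4:**
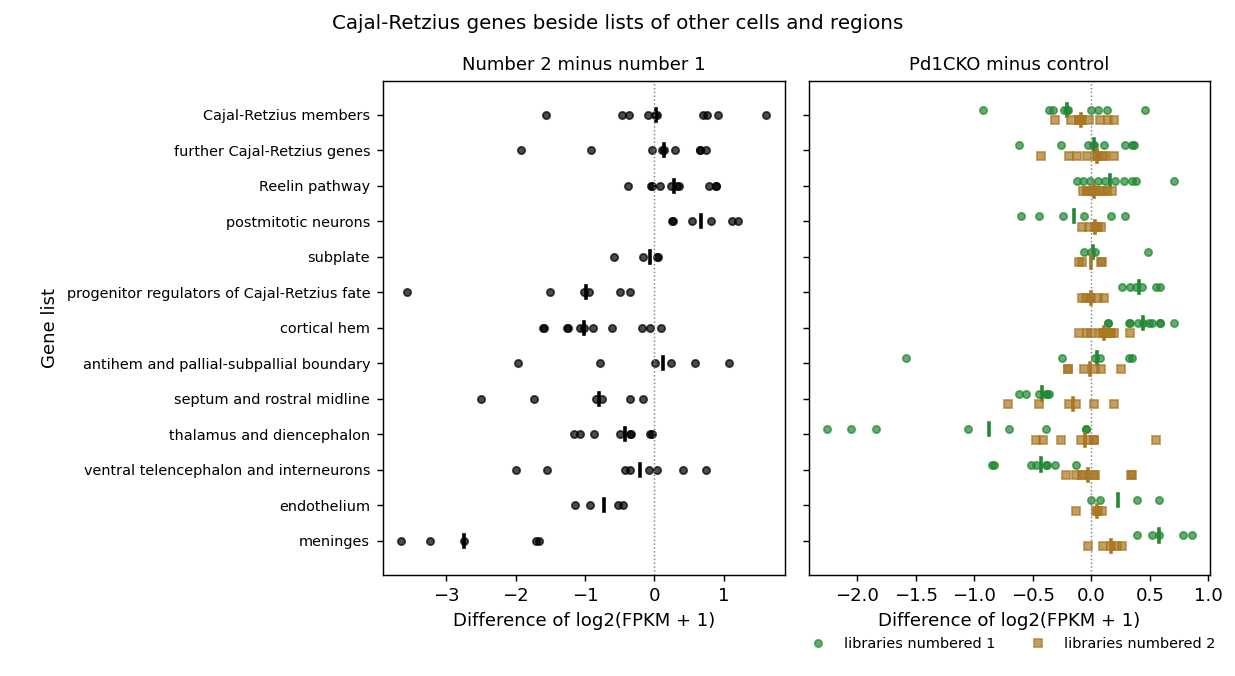
Difference of log2(FPKM + 1) for every gene of 13 lists, number 2 minus number 1 over both genotypes (left) and Pd1CKO minus control within each number (right, green circles for number 1 and brown squares for number 2). Points are genes and vertical ticks are list medians. The Cajal-Retzius members spread from -1.57 to 1.61 around a median of 0.03 on the left, while all genes of the meninges list lie below 0.

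The genes whose profiles over the 4 libraries came closest to those of 3 members differed from member to member. The measure was the Euclidean distance between log2(FPKM + 1) values centred on each gene's mean, and with 4 libraries it is a description only. Closest to Reln were Ccdc80 (distance 0.0637), Gramd1b (0.108), Adcy1 (0.136), Fam49a (0.155) and Hspa12a (0.178). Ccdc80, the closest, had 0.754, 1.46, 5.23 and 5.2 FPKM in control 1, Pd1CKO 1, control 2 and Pd1CKO 2. Adcy1, an adenylate cyclase of neurons, had 1.76, 2.45, 8.82 and 9.23 FPKM in that order. For Lhx5 they were Ilk (0.17), Irx3 (0.184), Snora69 (0.232), Olig2 (0.237) and Nnat (0.265). Ilk, an integrin-linked protein kinase and the closest, had 7.36, 3.91, 1.06 and 0.986 FPKM. Irx3, a homeobox factor of the diencephalon and more caudal brain, had 3.63, 1.51, 0.0671 and 0.12 FPKM. Olig2, a factor of ventral progenitors, had 27.1, 17.1, 6.38 and 6.16. The flat profile of Trp73 was shared by many genes, 353 within a distance of 0.1, led by Abracl, Pank4, Nol9, Wdr5 and Slc25a53 at 0.022 to 0.0276.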

How the data were processed

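RNA selected with oligo(dT) was sequenced in 4 libraries, per the labels' protocols. The submitters' processing notes list FastQC, fastp, HISAT2 and TopHat, StringTie, featureCounts and the mm10 build, without saying how each was used. The deposited values carry no unit and were taken as FPKM computed by the authors, because multiplying by exon-union length (Gencode M21) gave whole fragments (within 0.1) for 97.3% to 97.5% of values below 200 fragments, which also gave the depths. The other deposited tables repeat these values and were not used. limma 3.58.1 (limma-trend, R 4.3.3) was fitted two-sided to log2(FPKM + 1) for 13927 genes averaging 1 FPKM or more, with Benjamini-Hochberg adjustment over all of them at 0.05. The fit was also run on simulated libraries with and without a number effect, whose outcome is not given and is not used here. Python 3.11.15 with pandas 2.3.3 and scipy 1.17.1 gave the other values. Counting intervals are exact 95% Clopper-Pearson intervals of a ratio of fragments, given their sum, and leave out PCR copying and biological spread. Nothing in the labels says that the embryos were of separate litters, so p-values reflect these samples' spread alone. The members and lists were chosen with earlier results of these data known. Genes were named by rule: the 10 members, the reelin and chemokine lists, the 2 highest genes of each other list (1 gene is not reported here), and the 5 nearest profiles of Reln, Trp73 and Lhx5. Pdcd1, Ddx3y, Xist, Tbr1 as a tissue check, overlapping genes and other list genes were named after their values were seen. Alternatives were a replicate block, a pseudocount of 0.1, no filter, median or quantile scaling, removal of length and GC trends (loess, span 0.5), and leaving out each library.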

Additional observations from a re-analysis of the deposited data

How the results depend on the processing

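For genotype, limma called 0 Cajal-Retzius genes under all alternatives run, and 0 genes over the whole table except with the replicate block, which called 5. The same-numbered deviations of control and Pd1CKO had a correlation of 0.799 over genes, but with 2 numbers and no label that says what a number means, the libraries share only a number and the block is not read as a pairing. The genotype log2 fold changes of Trp73 and Cxcr4, near 0, became 0.008 and 0.033 with length and GC trends removed, with or without the replicate block. Leaving out each library in turn moved the genotype log2 fold change from -0.633 to 1.168 for Reln, -1.526 to 0.427 for Lhx5, -0.661 to 0.219 for Calb2, -0.449 to 0.443 for Cxcr4, -0.594 to 0.508 for Ndnf and -0.073 to 0.023 for Trp73, because a fit on 3 libraries sets number partly against genotype. For the number, 5 members were called in each leave-one-out fit, while the count over all genes ran from 2614 (without control 2) to 6850 (without Pd1CKO 1), with 2787 without Pd1CKO 2. Without a filter, 2976 genes and 3 members (Reln, Cxcr4 and Ndnf) passed, with 30637 genes tested. The removal of length and GC trends, chosen for the number after the data were seen, left 4 members called and turned Ebf3 to -0.269. Trp73 was at -0.008 with median scaling and from -0.043 to 0.066 in the leave-one-out fits, and Nhlh2 from -0.2 to 0.005. Both medians of the 10 genes within a number kept their sign with a pseudocount of 0.1, with the filter, with both scalings and with length and GC trends removed, and were not computed with the replicate block or with a library left out. Median scaling moved no library's median by more than 0.045. Depth limits Ndnf and Ebf2 most, with 69 to 353 and 76 to 183 fragments.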

Other observations

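Beyond Cajal-Retzius neurons, p73 is known in the mouse to drive genes of multiciliated cells, such as those of the choroid plexus, and these did not share the flat profile of Trp73. Of the 6 listed genes of the p53 family and of multiciliated cells, 4 were tested and 3 were called lower in the libraries numbered 2, with 0 called for genotype. Of all tested genes, 18.5% were called lower in number 2. Foxj1, the factor of motile cilia, had 17.6 and 21.2 FPKM in number 1 and 3.98 and 5.6 in number 2 (log2 difference -1.83 ± 0.17, SE, limma adjusted p = 0.00208). Ccno and Mcidas were called lower as well (limma adjusted p = 0.00499 and 0.0385), and both were named after their values were seen. Trp53 was at 31.7 to 41.5 FPKM and did not pass (limma adjusted p = 0.127), and Trp63 did not exceed 0.0318 FPKM.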
